A study of Homo sapiens with 4 samples.

Results

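The genes of MHC class II antigen presentation were followed in MOLM-14, a monocytic cell line from acute myeloid leukemia, after 24 h with DZNep at 2 µM or with the solvent DMSO. DZNep (3-deazaneplanocin A) inhibits S-adenosylhomocysteine hydrolase and is widely used to deplete the histone methyltransferase EZH2. Expression was measured on Affymetrix whole-transcript arrays, 2 from DZNep cultures and 2 from DMSO cultures, all of 1 cell line. The labels call the arrays of a group biological replicates without saying whether they were separate cultures, so SDs and p-values cover the spread between these arrays alone, and that spread may be technical. The 10 genes listed were HLA-DMA, HLA-DMB, HLA-DOA, HLA-DOB, HLA-DPA1, HLA-DPB1, HLA-DQB1, HLA-DRA, CD74 and CIITA. A gene was measured through probe sets whose annotation gives only its symbol, which left 8 of the 10 genes, with 17 probe sets, among the 18377 genes named on the array. HLA-DRA and CD74 lie only in probe sets annotated to several genes, so neither has a value of its own. The genes were chosen by their role in class II presentation and by the DZNep and DMSO values on these same arrays, so their differences are a description and carry no test.

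MHC class II molecules are pairs of an alpha and a beta chain that show peptides from endosomes to CD4+ T cells. Monocytes, macrophages, dendritic cells and B cells carry them. The classical chains (DR, DQ, DP) leave the endoplasmic reticulum with the invariant chain CD74, whose last fragment, CLIP, fills the groove until HLA-DM removes it and edits the peptide. HLA-DO holds HLA-DM back. CIITA, the class II transactivator, switches the family on through RFX, CREB and NF-Y proteins bound to conserved X and Y boxes close to the gene starts.

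Promoter sequence of the DM and DO genes and of 1 classical chain is shown for the letters of these boxes. RefSeq promoters (GRCh38.p14) were found for 8 of the 10 genes, not for HLA-DRA and CIITA, and the stretch from 130 to 41 bases before the start is printed for 5 of them, all on chromosome 6. Capitals mark CTGATGATG, letters shared by the X box of several class II genes, and ATTGG, which reads CCAAT on the other strand and is the core bound by NF-Y. The motifs do not overlap, and both were chosen after the sequences had been read.
HLA-DMA: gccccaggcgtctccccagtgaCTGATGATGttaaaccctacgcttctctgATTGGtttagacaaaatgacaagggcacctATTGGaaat
HLA-DMB: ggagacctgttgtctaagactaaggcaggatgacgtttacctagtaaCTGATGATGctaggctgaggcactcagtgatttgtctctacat
HLA-DOB: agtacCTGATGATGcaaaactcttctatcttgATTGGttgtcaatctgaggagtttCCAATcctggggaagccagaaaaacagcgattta
HLA-DOA: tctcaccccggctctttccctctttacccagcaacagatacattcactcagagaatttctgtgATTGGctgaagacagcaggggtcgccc
HLA-DPB1: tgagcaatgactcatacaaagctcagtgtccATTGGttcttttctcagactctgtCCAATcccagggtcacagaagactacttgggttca

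The windows are chr6:32953138-32953227 for HLA-DMA, chr6:32941069-32941158 for HLA-DMB, chr6:32817043-32817132 for HLA-DOB and chr6:33009632-33009721 for HLA-DOA, all on the minus strand, and chr6:33075860-33075949 for HLA-DPB1 on the plus strand. Searched over 250 bases before the start and on both strands, CTGATGATG was found in 3 of the 9 member promoters (HLA-DPA1 has 2), those of HLA-DMA, HLA-DMB and HLA-DOB, against 0.222% of all 35116 promoters. ATTGG was found in 7 of the 9, against 32.0% of all promoters. In HLA-DMB its only match lies on the other strand, 22 to 18 bases before the start and outside the printed stretch. Because the motifs were chosen after these sequences had been read, the member counts are no test. The search was for exact letters, so a promoter without CTGATGATG may still hold an X box. These matches describe the letters only and show no binding.

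The DM genes had the largest differences of the 8 measured members. HLA-DMB, the beta chain of the peptide editor, had log2 intensities of 8.85 and 8.89 on the DZNep arrays, against 7.82 and 7.87 on the DMSO arrays. The groups lay far apart and each was tight, with a log2 difference of 1.02 (SE 0.093), or 2.03-fold higher with DZNep. HLA-DMA, its alpha chain partner, had 8.75 and 8.82 with DZNep, against 8.14 and 7.90 with DMSO. Both DZNep arrays were again above both DMSO arrays, by a mean log2 difference of 0.76 (SE 0.11), or 1.70-fold. A log2 difference at least as high as that of HLA-DMB was seen in 0.321% of all genes, and at least as high as that of HLA-DMA in 0.658%. The other probe sets gave near-equal values, 1.05 for the second of HLA-DMB and 0.76 and 0.77 for the other 2 of HLA-DMA. Probe sets of 1 gene in this region can share probes, so they are not independent measurements.

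**Figure D1:**
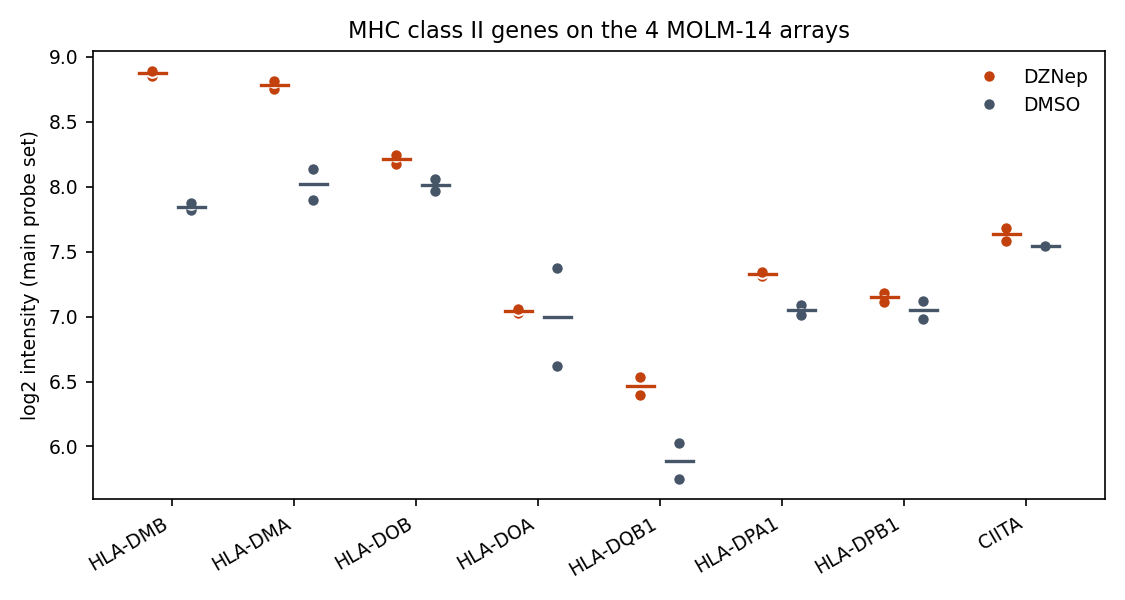
Log2 intensity of the main probe set of the 8 measured MHC class II genes; points are single arrays (DZNep left, DMSO right) and bars are means of 2 arrays. HLA-DMB and HLA-DMA stand well apart between the groups, HLA-DOA spreads widely between its DMSO arrays, and CIITA lies between 7.54 and 7.68 on all 4 arrays.

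The DO genes, whose product restrains HLA-DM, differed little. HLA-DOB, the beta chain, had 8.18 and 8.25 with DZNep, against 8.06 and 7.97 with DMSO, a log2 difference of 0.20 (SE 0.096) with groups that did not overlap. HLA-DOA, the alpha chain, had 7.03 and 7.06 with DZNep, against 6.62 and 7.37 with DMSO. The DZNep arrays lay between the DMSO arrays, so the mean difference of 0.04 (SE 0.20) has no settled sign. Leaving out DMSO replicate 1 gave -0.33, and leaving out DMSO replicate 2 gave 0.42. The second HLA-DOA probe set showed the same gap between the DMSO arrays, at 6.41 and 7.01.

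Among the classical chains, the DP genes had small differences and HLA-DQB1 a moderate one. HLA-DPA1, the DP alpha chain, had 7.31 and 7.35 with DZNep, against 7.09 and 7.01 with DMSO. The groups were separate on all 3 of its probe sets, with log2 differences from 0.28 to 0.34. HLA-DPB1, the DP beta chain, had 7.18 and 7.11 with DZNep, against 6.98 and 7.12 with DMSO. Its groups overlapped on 2 of 3 probe sets, and the differences ran from 0.03 to 0.11. HLA-DQB1, the DQ beta chain, had 6.39 and 6.53 with DZNep, against 6.03 and 5.75 with DMSO, a log2 difference of 0.57 (SE 0.12) or 1.49-fold. Its 1 probe set is annotated to 1 accession that is not a RefSeq mRNA, and it was among the dimmest 25% of genes, so the value may not stand for the whole transcript. Probe sets annotated to HLA-DQB1 together with other class II genes had smaller log2 differences. The 4 with HLA-DQB2 had 0.14 to 0.30, with overlapping groups on 2, and the 1 with HLA-DRB1 had 0.16. The 3 with several DRB genes had 0.40 to 0.48. Which gene gives their signal cannot be told. Class II chains resemble one another closely, and probes of one can bind the transcripts of another.

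CIITA, the transactivator of the whole family, differed little. Its log2 intensities were 7.68 and 7.58 with DZNep, against 7.55 and 7.54 with DMSO. Both DZNep arrays were above both DMSO arrays, but the difference of 0.09 (SE 0.095) was smaller than its standard error. The gene uses several promoters with different first exons, which 1 probe set cannot tell apart.

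Read as a family, 6 of the 8 measured members had both DZNep arrays above both DMSO arrays, against 25.9% of all genes, and none had both below, against 23.9%. The median log2 difference was 0.24 over the 8 members and 0.02 over all 18377 genes. In limma's fit over all genes (adjusted p under 0.05), HLA-DMB, HLA-DMA and HLA-DQB1 were called higher, 3 of 8, and none lower, against 3.62% called higher and 6.68% called lower among all genes. Because the members were proposed with this comparison known, these counts describe them and nothing is read from them. Without DMSO replicate 2, HLA-DOA was also called.

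Set against each other, the DM genes differed more than the classical chains measured. The mean log2 difference was 0.89 over the DM pair, 0.32 over HLA-DPA1, HLA-DPB1 and HLA-DQB1, 0.12 over the DO pair and 0.09 for CIITA. The DO mean includes HLA-DOA, whose difference has no settled sign, so its place in this order is not settled either. On each array, the mean log2 intensity of the DM pair minus that of the 3 classical chains was 1.84 and 1.85 with DZNep, against 1.28 and 1.26 with DMSO. The absolute size of this gap depends on the probes. Only its change, 0.58 or 1.49-fold, compares the treatments, though the change can also depend on how bright the probe sets are. Without HLA-DQB1 the change was 0.71. Set against CIITA in the same way, the gap was 1.12 and 1.27 with DZNep, against 0.43 and 0.34 with DMSO, a change of 0.81. Within the pair, HLA-DMB minus HLA-DMA was 0.10 and 0.07 with DZNep, against -0.32 and -0.03 with DMSO, so the change of 0.26 was smaller than the gap between the DMSO arrays. With DMSO, mean log2 intensities were 7.05 for HLA-DPA1 and HLA-DPB1, 5.89 for HLA-DQB1, 7.55 for CIITA, 8.02 for HLA-DMA and 7.85 for HLA-DMB. The medians of the DMSO arrays were 6.99 and 7.07. Background signal can make the log2 differences of dimmer probe sets too small. Its part in the smaller differences of the classical chains and CIITA was not tested.

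The contrast covers only 3 of the 4 classical chains listed, since HLA-DRA has no probe set of its own. The 3 probe sets annotated to HLA-DRA together with HLA-DQA1 had log2 differences from 0.89 to 1.06, close to those of the DM genes. The highest had 8.10 and 8.08 with DZNep, against 7.30 and 6.77 with DMSO, and all 3 had separate groups. Which of these genes the signal comes from cannot be told apart. HLA-DQA1 also has a probe set of its own, with 6.65 and 6.53 with DZNep, against 6.22 and 6.25 with DMSO, a log2 difference of 0.35 (limma, SE 0.097, adjusted p = 0.0503). That call falls on either side of the threshold across alternatives, with adjusted p from 0.0248 to 0.474. The 4 probe sets annotated to HLA-DQA1 together with HLA-DQA2 had log2 differences from 0.20 to 0.33, all with separate groups. The probe set annotated to CD74 together with ROS1 had 9.70 and 9.62 with DZNep, against 9.53 and 9.16 with DMSO, a log2 difference of 0.31. Over all 16 probe sets with joined class II symbols, differences ran from 0.14 to 1.06. Of these, 14 had separate groups, all higher with DZNep, against 25.9% of all genes. Some of the 16 have near-equal values and can share probes, so they are not independent measurements and nothing is read from the count. The statement that DM differed more than the classical chains therefore holds for the chains with a probe set of their own and not for the probe sets that join HLA-DRA and HLA-DQA1.

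**Figure D2:**
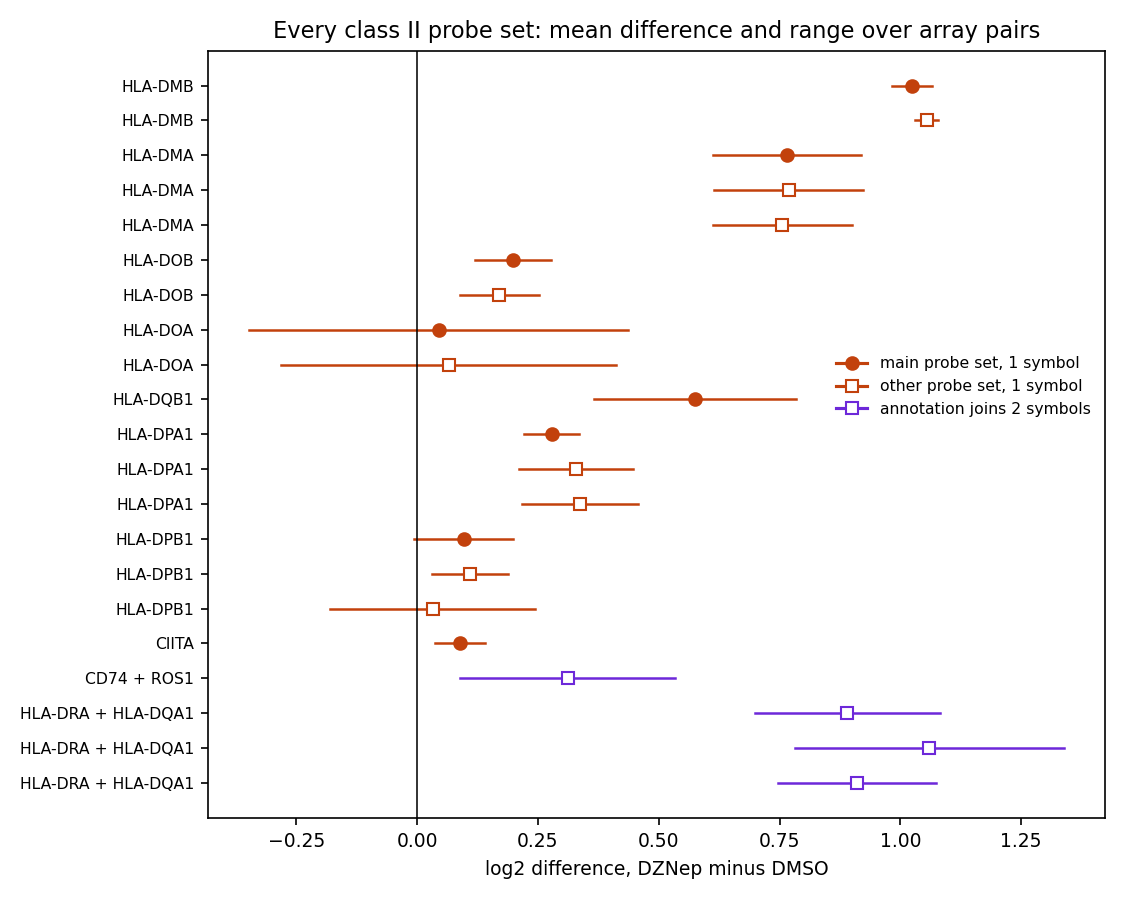
Log2 difference (DZNep minus DMSO) of every probe set of the measured members, with the 4 probe sets that join HLA-DRA or CD74 with another gene in purple; symbols are mean differences and lines run from the lowest to the highest difference between a DZNep and a DMSO array. The DM and HLA-DRA + HLA-DQA1 probe sets lie at 0.76 to 1.06, and the lines of both HLA-DOA and of 2 HLA-DPB1 probe sets cross 0.

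The DM genes are neighbours in the class II region, and the listed genes on either side of them did not pass the test. HLA-DMB (chr6:32934636-32941028) and HLA-DMA (chr6:32948618-32953097) lie side by side, between PSMB9 and BRD2 in the list of neighbours examined. PSMB9, an immunoproteasome subunit, had 9.02 and 9.06 with DZNep, against 9.17 and 9.15 with DMSO, and BRD2, a bromodomain protein, had 9.99 and 10.03, against 9.98 and 9.93. Limma's adjusted p was 0.57 for PSMB9 and 0.815 for BRD2. Of the 12 neighbours in the region, 2 rose and none fell (limma), beside the 3.62% and 6.68% of all genes, and their median log2 difference was 0.06. The neighbours were listed with earlier results of these data known, so this count is a description only. TAP1, a subunit of the peptide transporter for MHC class I, had 9.39 and 9.46 with DZNep, against 9.05 and 8.86 with DMSO, a rise of 0.47 (limma, adjusted p = 0.0211). TAPBP, the class I peptide-loading chaperone tapasin, rose by 0.42 (limma, adjusted p = 0.0405). TAP1 lost its call without either DZNep array (adjusted p of 0.0519 and 0.122), and TAPBP without either DZNep array or DMSO replicate 1 (0.0668 to 0.285).

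**Figure D3:**
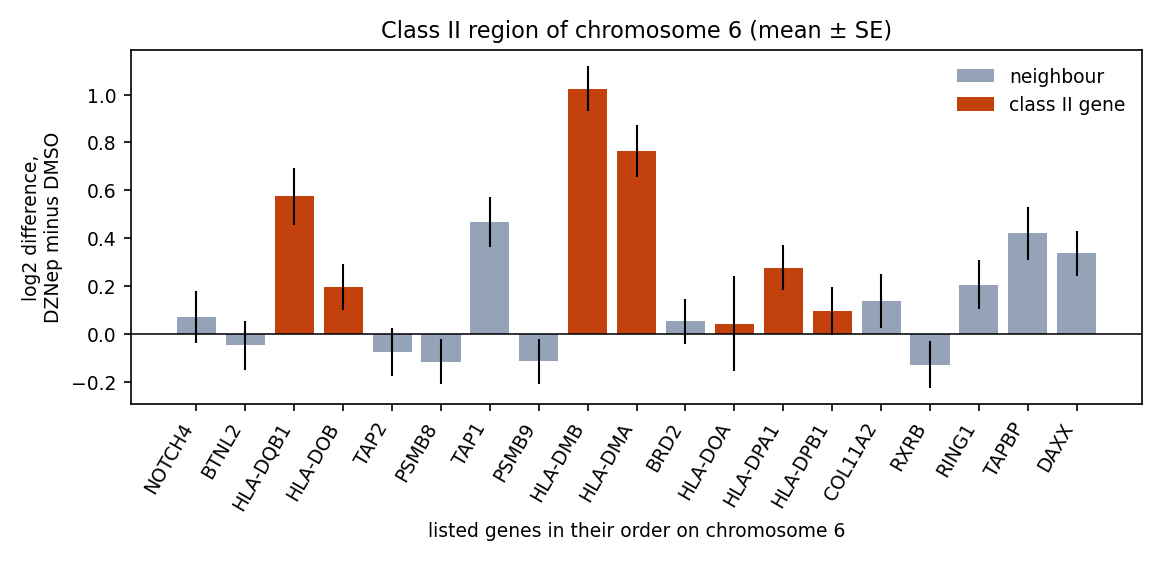
Log2 difference (DZNep minus DMSO, mean ± SE from limma's fit on 2 arrays per group) of class II genes (orange) and listed neighbours (grey) in their order along chromosome 6. HLA-DMB and HLA-DMA, at 1.02 and 0.76, stand between PSMB9 at -0.11 and BRD2 at 0.05.

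Of 43 other genes of the class II pathway, 12 rose and 1 fell (limma, adjusted p under 0.05 over all genes), with a median log2 difference of 0.07. Among all genes 3.62% rose and 6.68% fell, the background for the counts of each list that follows, and the median was 0.02. The lists were drawn up with earlier results of these data known, so their counts describe them and nothing is read from them. The number that rose was 9 without DZNep replicate 1 and 8 without DZNep replicate 2. With 16 subtracted from every intensity before log2, the calls of PRDM1 (adjusted p = 0.0702) and MARCHF8 (0.0749) and of the neighbours TAP1 (0.0538) and TAPBP (0.0882) ended. Among 8 factors that bind class II promoters or work with CIITA, NFYB, an NF-Y subunit, rose, with 9.42 and 9.25 with DZNep, against 8.72 and 8.75 with DMSO (log2 difference 0.60, limma SE 0.10, adjusted p = 0.00563). The other NF-Y subunits NFYA and NFYC, the 3 RFX subunits, CREB1 and ZXDC did not pass, with log2 differences from -0.10 to 0.12.

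Of 9 regulators of CIITA, 3 rose and none fell. PRDM1, a repressor of CIITA in plasma cells, had 8.65 and 8.83 with DZNep, against 8.36 and 7.91 with DMSO (log2 difference 0.60, limma adjusted p = 0.0301). Its call ended without DMSO replicate 2, where the difference was 0.38 (adjusted p = 0.0689). JAK2 and IFNGR2, a kinase and a receptor chain of interferon gamma signalling, rose by 0.49 and 0.46 (limma adjusted p of 0.0116 and 0.0135). JAK2 lost its call without DZNep replicate 1 (adjusted p = 0.101), and IFNGR2 without either DZNep array (0.0814 and 0.0931). The myeloid transcription factors IRF8 and SPI1, which act on CIITA in antigen-presenting cells, had log2 differences of 0.19 and 0.06 and did not pass.

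Of 10 genes of peptide supply and invariant chain cleavage, 3 rose and 1 fell. IFI30, the thiol reductase GILT that opens disulfides of antigens, had 9.42 and 9.46 with DZNep, against 8.75 and 8.43 with DMSO (log2 difference 0.85, limma SE 0.12, adjusted p = 0.00229). The endosomal proteases CTSD and CTSB rose by 0.62 and 0.53 (limma adjusted p of 0.00365 and 0.00902), CTSB being named after its value was seen. CTSH, another cathepsin, had a mean of 7.22 ± 0.22 with DZNep, against 7.88 ± 0.17 with DMSO (SD, n = 2 arrays each), and fell by 0.67 on the log2 scale (limma adjusted p = 0.0118). That call ended without DMSO replicate 1, at -0.55 (adjusted p = 0.067). CTSS, the main protease of invariant chain cleavage in antigen-presenting cells, had a log2 difference of 0.15 (limma adjusted p = 0.405), and SPPL2A, which clears the CD74 stub from membranes, one of -0.30 (adjusted p = 0.107).

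Of 10 genes of surface turnover and transport, 4 rose and none fell. Both DZNep arrays were above both DMSO arrays for 7 and below for 3, against 25.9% and 23.9% of all genes. CD82, a tetraspanin of class II compartments, had 9.55 and 9.58 with DZNep, against 8.57 and 8.61 with DMSO (log2 difference 0.98, limma SE 0.093, adjusted p = 0.000337). The tetraspanin CD63 rose by 0.54 (limma adjusted p = 0.0101) and lost its call without DZNep replicate 2 (0.0909). MARCHF8, a ubiquitin ligase that removes class II from the surface, rose by 0.46 (limma adjusted p = 0.0388), a call that ended without DZNep replicate 2 (0.182) or DMSO replicate 2 (0.0886) and under median centring (0.0693), quantile (0.0576) or cyclic loess (0.0866) normalization. The fourth, chosen after its value was seen, was the tetraspanin CD53 at 0.46. The other tetraspanins listed did not pass: CD37 had -0.24 (limma adjusted p = 0.31), CD81 0.22 (0.198) and CD9 0.35 (0.0824). MARCHF1, the ligase that acts on class II in resting dendritic cells and B cells, had a log2 difference of 0.10 (limma adjusted p = 0.644).

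Of 6 genes of costimulation and adhesion, CD86 alone passed. It had 8.45 and 8.37 with DZNep, against 7.04 and 6.87 with DMSO (log2 difference 1.45, limma adjusted p = 8.38e-05). The other 5, CD80, CD40, CD83, ICAM1 and CD58, had log2 differences from -0.15 to 0.26.

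**Figure D4:**
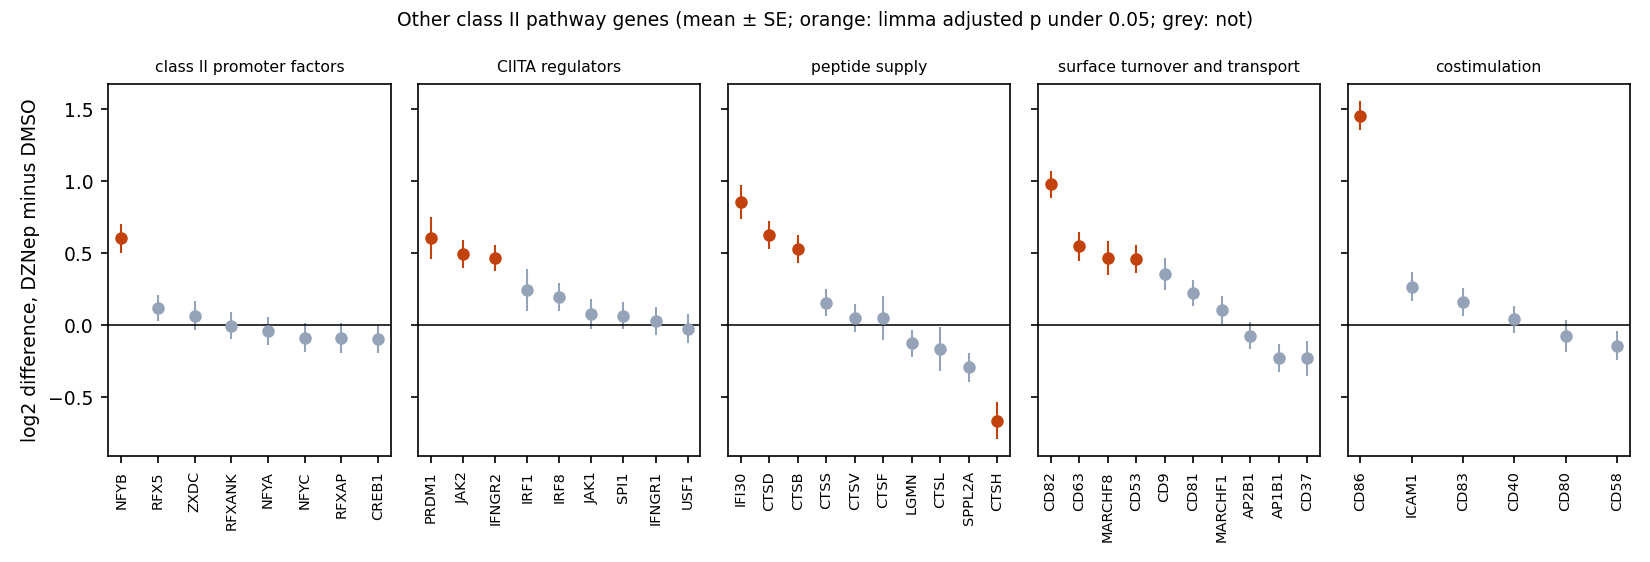
Log2 difference (DZNep minus DMSO, mean ± SE from limma's fit on 2 arrays per group) of 43 other class II pathway genes in 5 lists, orange where limma's adjusted p was under 0.05. CD86, CD82 and IFI30 lie highest, at 1.45, 0.98 and 0.85, and CTSH lowest, at -0.67.

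The genes whose centred log2 values lay nearest to each DM gene over the 4 arrays were found by Euclidean distance among 18376 genes. For HLA-DMB they were CD82 (distance 0.048), the lysosomal protein CTSA (0.073) and the myeloid surface protein CD93 (0.078). For HLA-DMA they were ZNF587 (0.034), CYTH4 (0.036) and KLHL24 (0.062). With 4 arrays in 2 groups, such nearness says little beyond an equal difference and an equal gap between the DMSO arrays. The partners themselves lay 0.33 apart, HLA-DMA being the 90th nearest gene to HLA-DMB and HLA-DMB the 302nd nearest to HLA-DMA.

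The cell type of the line was examined through marker lists, which were also chosen with earlier results of these data known. Of 8 myeloid markers measured, 2 rose and 1 fell (limma), beside 3.62% and 6.68% of all genes. An unadjusted limma p under 0.05 was reached by 6 of the 8, and by 4076 of all 18377 genes. The differences of the myeloid markers went both ways. Both DZNep arrays were above both DMSO arrays for 4 and below for 3, against 25.9% and 23.9% of all genes. LYZ, lysozyme, had 12.82 and 12.72 with DZNep, against 12.15 and 12.32 with DMSO, and rose by 0.53 (adjusted p = 0.0114, and 0.0706 without DZNep replicate 1). CSF1R, the M-CSF receptor, rose by 0.47 (adjusted p = 0.0128, and up to 0.094 without either DZNep array). FLT3, a receptor kinase of early progenitors, had 10.93 and 10.91 with DZNep, against 11.94 and 11.79 with DMSO, and fell by 0.94 on the log2 scale (adjusted p = 0.000535). The monocyte and macrophage markers CD68 and ITGAM had log2 differences of -0.38 (limma adjusted p = 0.0826) and -0.22 (0.246), opposite in sign to LYZ and CSF1R, with separate groups. CD14 and TYROBP, also with separate groups, had 0.33 (limma adjusted p = 0.133) and 0.27 (0.124), the same sign as LYZ and CSF1R. Markers of other antigen-presenting cells and of T cells did not pass limma's test in any member (0 of 6 for B cells, 0 of 7 for dendritic cells, 0 of 6 for T cells). At an unadjusted limma p under 0.05, reached by 4076 of all 18377 genes, the count was 1 for dendritic cells, BATF3 at -0.31, and 0 for B cells and T cells. The mean log2 intensity of the B cell list was 6.63 and 6.57 with DZNep, against 6.53 and 6.61 with DMSO, and that of the dendritic cell list 6.27 and 6.27, against 6.26 and 6.25. The T cell list had 6.27 and 6.17 with DZNep, against 6.10 and 6.23 with DMSO. No detection call comes with the values, so absence of these markers cannot be shown. Whether the myeloid markers that moved had a part in the class II differences was not tested. In bulk RNA, more cells that express a gene and more RNA per cell cannot be told apart.

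The arrays had similar medians, and the DMSO arrays were less alike than the DZNep arrays. The median log2 intensity of an array was between 6.99 and 7.08. The SD of the log2 difference over all genes was 0.14 between the DZNep arrays and 0.20 between the DMSO arrays, against 0.27 to 0.32 between a DZNep and a DMSO array. Precision is limited by having 2 arrays a group, and an exact permutation test of 2 against 2 arrays could not give a p under 0.333.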

How the data were processed

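Total RNA of MOLM-14 cells was hybridised to Affymetrix arrays after whole-transcript sense labelling, per the labels' protocols. The deposited values are probe set intensities on a linear scale made by the authors with RMA, as named in the submitters' processing notes; its version is not given in the sources used here. Log2 was taken with no pseudocount, filter or further normalization. Probe sets were named through the platform annotation: of 28869, 19310 have 1 symbol, 1752 several and 7807 none listed. Where a gene had several, the brightest (highest mean log2) stands for it, which gave 18377 genes. DZNep was compared with DMSO in R 4.3.3 by limma 3.58.1 (eBayes on lmFit, a two-sided test). Adjusted p-values are Benjamini-Hochberg values over the whole table, called under 0.05. Degrees of freedom were 2 residual and 7.18 prior, and the script was tested on simulated data. The members and lists were chosen with earlier results of these data known. Beside all members, the genes named from each list are up to 3 called genes with the largest difference, or else the 1 largest, and the 3 genes nearest to each DM gene. Genes named beyond these were chosen after their values were seen. A few listed genes are not reported here. Promoters come from RefSeq (GRCh38.p14). Alternatives were the replicate number as a block, quantile or cyclic loess normalization, median centring, leaving out the dimmest 25% of genes, subtracting 16 before log2, an intensity trend, array weights, the mean over probe sets and leaving out each array.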

Additional observations from a re-analysis of the deposited data

How the results depend on the processing

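The count of members called higher was 2 without the dimmest 25% of genes, which removed HLA-DQB1 and with it the contrast, and 3 or 4 under every other alternative, and none was called lower. HLA-DMB stayed between 0.99 and 1.08 and HLA-DMA between 0.64 and 0.89 in all alternatives run. HLA-DQB1, where it was kept, ran from 0.44 to 0.74. Its highest value came with 16 subtracted before log2, where HLA-DMA had 0.80. The DM minus classical contrast was 0.62 under quantile normalization, 0.62 under cyclic loess, 0.55 with 16 subtracted before log2, and 0.57 to 0.59 with any 1 array left out. HLA-DOA was between -0.33 and 0.42 with 1 array left out. The other pathway genes called lower numbered 2 with an intensity trend and 0 to 2 with 1 array left out. Over all genes, 665 were called higher and 1227 lower with all arrays, and leaving out 1 array gave 336 to 776 higher and 734 to 1662 lower calls. Both counts fell without either DZNep array, and the lower calls also fell without DMSO replicate 1. Both counts were highest without DMSO replicate 2, and the cause was not tested. The replicate number as a block gave 754 higher and 1353 lower calls and changed no call of a member. Same-numbered arrays deviated in opposite directions (correlation -0.22 over genes), and a crossed replicate block, added after seeing the data, gave 1034 higher and 1690 lower. The numbers are not shown to pair the arrays. Whether a constant near 18 underlies the lowest intensities was not tested. Such a constant would make the differences of dim genes too small.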
